A study of Mus musculus with 9 samples.

Results

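The histone cluster genes encode the histones that package newly replicated DNA, and 60 of them were followed in polyA+ RNA of mouse embryonic stem cells and of embryoid bodies, the aggregates in which such cells begin to differentiate. They were chosen by symbol (Hist1h, Hist2h, Hist3h or Hist4h, without the pseudogene symbols that carry -ps) and by a raw count of at least 10 in at least 2 of 9 libraries. The rule left 60 of 67 such symbols among 49326 named genes: 6 encode the linker histone H1, 17 encode H2A, 14 encode H2B, 10 encode H3 and 13 encode H4. By the cluster named in the symbol, 52 are Hist1 genes, all on chromosome 13, 5 are Hist2, 2 are Hist3 and 1 is Hist4. Hist1h2aj and Hist1h2al carry a histone symbol but are annotated as pseudogenes. Hist1h2al (chr13:51202727-51203065, minus strand) also lies far from the other Hist1 genes. Just inside the count rule lay Hist1h1t, a linker histone of the testis, with 13 and 11 reads in its highest libraries. Just outside lay Hist2h2ab and Hist2h2aa2, which reached 13 and 10 reads in a single library each.

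The samples were wild-type cells and Hnrnpll-/- cells at day 0 (stem cells grown with serum and leukemia inhibitory factor) and after 4 and 8 days of embryoid body formation in hanging drops. Wild type contributed 1 library per day. The Hnrnpll-/- genotype contributed 1 library per day from each of 2 lines, G6 and H8, so that each knockout group has 2 libraries and the wild-type line cannot be told apart from the genotype. Hnrnpll encodes an RNA-binding protein known as a regulator of splicing. As a check of the labels, Hnrnpll RNA stood at 77.1, 101.1 and 112 TPM, a level scaled for transcript length and library depth, in wild-type cells of day 0, 4 and 8, at 54.9, 61.2 and 56.5 TPM in G6 and at 24.5, 38.6 and 43.5 TPM in H8, lower in each knockout library but not absent. Neither the mutation carried by each line nor whether a line is 1 clone is given in the sources used here, and nothing says that the libraries came from separate cultures, so the p-values measure only the spread between these libraries.

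Replication-dependent histone genes are transcribed during S phase, when the cell copies its DNA, and their mRNAs differ from other mRNAs at the 3′ end. The primary transcript is cut shortly after a conserved stem-loop, which is bound by the protein SLBP, and the mature mRNA normally has no polyA tail. Some histone genes also give longer or spliced polyadenylated mRNAs, a form known from differentiated cells. A polyA+ library therefore does not measure total histone mRNA, and the levels below are those of the histone RNA that passed the polyA selection or was carried along with it.

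The 3′ ends show both kinds of signal. Among the annotated transcripts of the 60 genes (GENCODE M21, build mm10, transcript strand only), the hairpin with a perfect 6-base stem and a 4-base loop that most genes shared was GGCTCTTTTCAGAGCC, found in 22 of them. With up to 2 mismatches it was found in 37 of 60, against 0.438% of 21901 protein-coding genes. The hairpin was picked as the most shared among these 60 genes, so a higher share in them follows in part from that choice. The following stem-loops (capitals) belong to genes on which the results turn: a linker gene with a long form, both genes of the Hist3 cluster, and 3 of the genes called at day 8.
Hist1h1c: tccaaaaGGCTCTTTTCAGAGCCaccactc
Hist3h2ba: acccaaaGGCTCTTTTCAGAGCCaccttcc
Hist3h2a: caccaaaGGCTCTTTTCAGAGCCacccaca
Hist1h3c: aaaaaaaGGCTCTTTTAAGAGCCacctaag
Hist1h4d: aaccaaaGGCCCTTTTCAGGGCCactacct
Hist1h4n: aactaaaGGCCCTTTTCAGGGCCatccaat
The form with a G-C pair inside the stem, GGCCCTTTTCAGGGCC, occurred in 7 genes, all of them H4 genes, and the form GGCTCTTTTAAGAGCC with an altered loop occurred in 6 genes.

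The annotated transcript ran on for more than 100 bases past the stem-loop in 17 of the 37 genes and ended within 100 bases of it in 20. It continued for 840 bases in Hist1h1c, 1643 in Hist3h2a, 169 in Hist3h2ba and 770 in Hist1h4d, and for only 31 in Hist1h4n and 74 in Hist1h3c. The polyadenylation hexamer AATAAA was found in the last 50 bases of an annotated transcript in 14 of 60 genes, against 65.7% of protein-coding genes. A gene counted if any of its transcripts held the hexamer, so genes with more annotated transcripts had more chances to count. These ends (hexamer in capitals) show it in the long forms of Hist1h1c and the Hist3 genes and in the spliced transcript of Hist1h2br, which holds no stem-loop match.
Hist1h1c: gtatgcttctAATAAAaagcgtttagtttt
Hist3h2ba: taatggtattAATAAAtttggttcaatttt
Hist3h2a: gtatatgcccAATAAAataagagtacgtgt
Hist1h2br: aagaatattaAATAAAtttgtttcttctcc
Most of the genes thus lack AATAAA near an annotated end, and 23 of 60 have no stem-loop match in their annotated transcripts. Other forms of the hexamer were not searched. An annotated end that stops at the coding sequence would hold neither, so absence here is only absence from these annotated sequences.

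Histone cluster RNA was scarce. The 60 genes together took up 4076 to 12843 reads per library, out of 54218051 to 184952442, and 79.0 to 254 TPM, a level per length and per library. Their median level was 0.740 to 2.99 TPM by library, and only Hist1h1c and Hist1h2bc averaged 10 TPM or more over the 9 libraries. Of the rest, 45 averaged 1 to 10 TPM and 13 less than 1 TPM. Since many of the genes are near-copies of each other, reads are hard to assign: a median of 51.0% of the 50-base stretches of a gene's annotated transcripts also occurred in another gene, and 30 genes shared at least 50%. Single-gene values of such genes are uncertain. Sums over a histone type are less exposed only if such reads were split between copies of that type. How reads that map to several places were treated is not given in the sources used here.

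Levels were spread unevenly within a type. In H1, Hist1h1c (chr13:23738808-23740367, plus strand) averaged 17.7 TPM, well above Hist1h1a at 3.26 TPM and Hist1h1d at 1.62 TPM. In H2B, Hist1h2bc (chr13:23684199-23692908, plus strand, a gene with spliced transcripts) averaged 21.2 TPM, followed by Hist1h2bg at 9.54 TPM and Hist1h2bk at 7.85 TPM. Hist1h1c and Hist1h2bc alone made up 10.8% to 27.1% of the summed TPM of the 60 genes, so the sums of H1 and H2B lean on single genes. The other types were more even: Hist1h2ae, Hist1h2ad and Hist3h2a averaged 3.73, 3.68 and 3.65 TPM in H2A. Hist1h3c, Hist1h3i and Hist1h3h averaged 6.06, 6.03 and 4.56 TPM in H3, and Hist1h4i, Hist1h4d and Hist1h4n averaged 8.57, 5.76 and 4.13 TPM in H4. The order of the H2A genes and that of Hist1h3c and Hist1h3i lies within the spread over libraries.

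**Figure D1:**
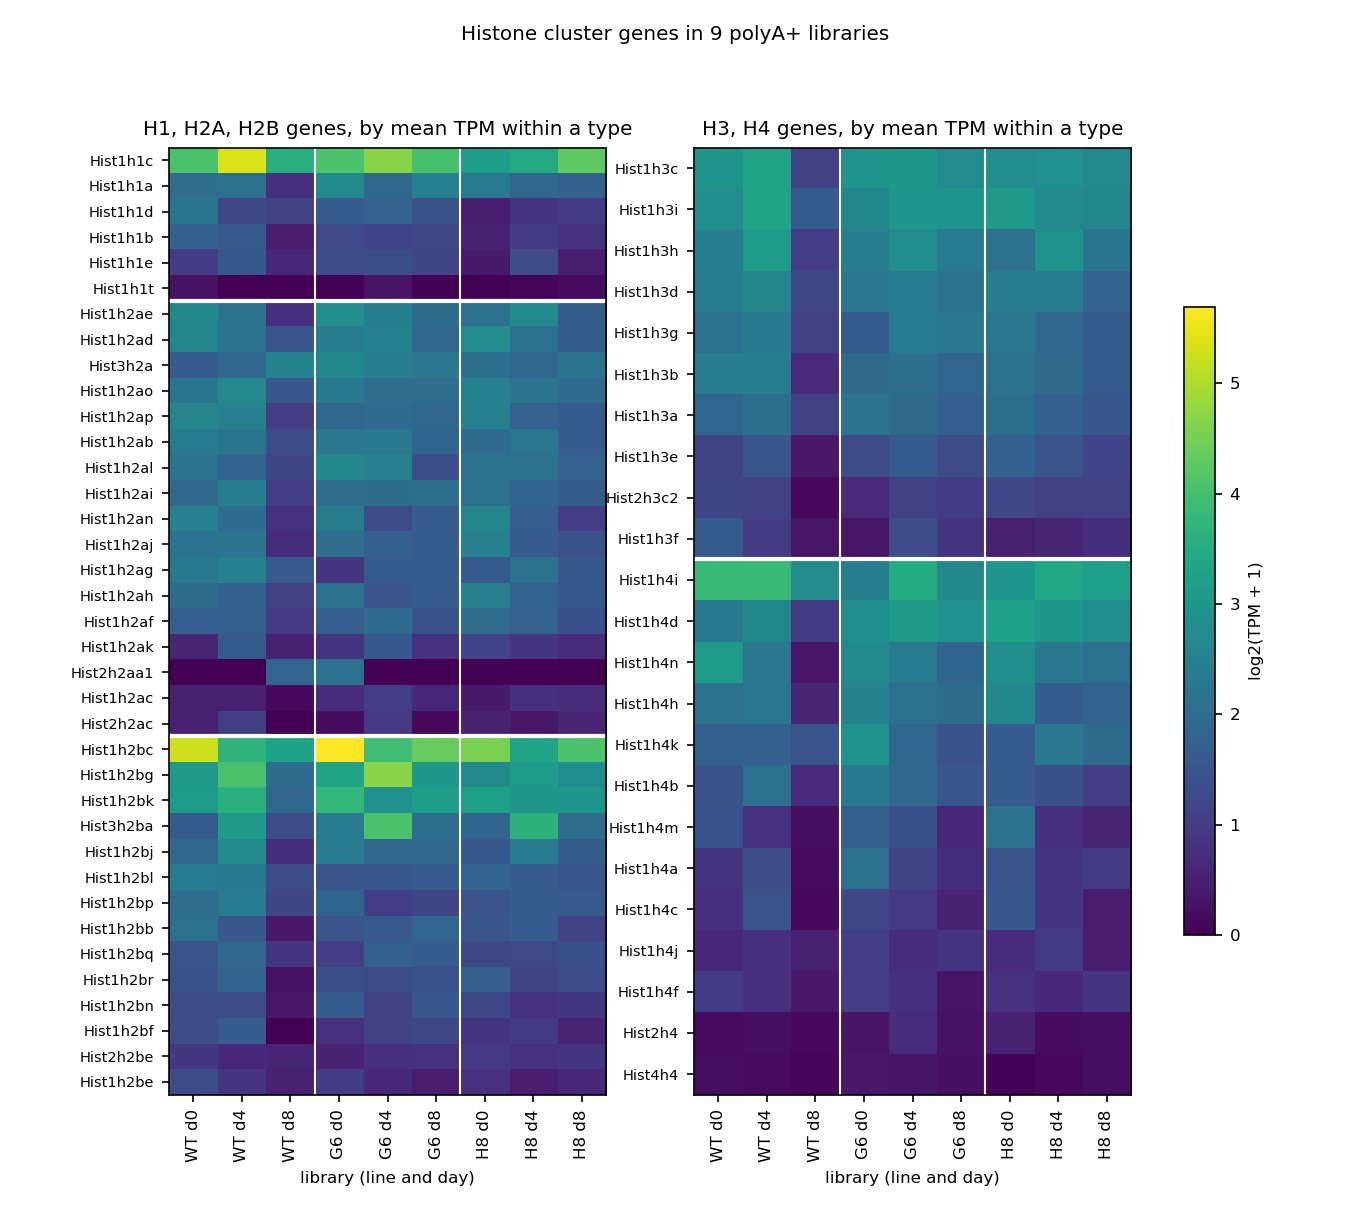
Level of each of the 60 histone cluster genes as log2(TPM + 1), 1 row per gene and 1 column per library (WT, wild type; G6 and H8, the Hnrnpll-/- lines; d, day), with white lines between types and between lines. The wild-type day 8 column is the darkest for most genes, Hist1h1c and Hist1h2bc are the brightest rows, and Hist3h2a is brighter in wild type at day 8 than at day 0 and 4.

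In wild type, histone cluster RNA was at its lowest at day 8. The summed level of the 60 genes was 227, 254 and 79.0 TPM at day 0, 4 and 8. The day 8 level was below that of day 4 in 57 of 60 genes, against 42.0% of 24783 genes tested, and 47 of 60 were below 0.5 times their day 4 level, against 16.1% of those genes. The wild-type day 8 library was the lowest of all 9 for 44 of 60 genes, against 15.0% of all genes. With 1 wild-type library per day, these steps have no replicate check and no test, and a difference between this library and the others cannot be told apart from a difference between days.

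The wild-type course differed by type. The H3 sum stood at 36.2, 46.1 and 9.15 TPM, and its day 4 level was 5.04 times that of day 8. H2B stood at 77.1, 71.8 and 22.1 TPM, and H4 at 37.5, 37.3 and 11.1 TPM. H1 stood at 25.9, 49.0 and 13.8 TPM, and its day 4 peak was that of Hist1h1c (15.6, 40.5 and 11.01 TPM), since H1 without that gene stood at 10.4, 8.53 and 2.79 TPM. H2A stood at 50.03, 49.6 and 22.9 TPM, where day 4 was 2.17 times day 8. By the median TPM of members the same ratio was 3.83 for H3, 2.76 for H2A and 5.85 for H4, so the order of the types is not fixed. In all 5 types the day 8 sum was thus the lowest of the 3 wild-type days, and all H2B, H3 and H4 genes were lower at day 8 than at day 4.

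The exceptions to the low day 8 level in wild type were few. Hist3h2a, an H2A gene outside the main cluster (chr11:58954685-58956830, plus strand), stood at 2.15, 2.79 and 4.96 TPM at day 0, 4 and 8, and so was highest where most of the others were lowest. It overlaps the gene Trim17 on the same strand, and how reads of such a pair were assigned is not given in the sources used here. Hist1h2bc, the most abundant H2B gene, was not such an exception but was lower at day 4 already (37.9, 12.0 and 8.81 TPM). A lower level at day 4 than at day 0 was not rare in wild type, although 34 of 60 genes (56.7%) were higher at day 4, against 45.5% of all genes. Hist2h2aa1 was read only in wild type at day 8 (100 reads) and in G6 at day 0 (56 reads), with 0 reads in the other 7 libraries. It shares 89.4% of its 50-base stretches with other genes, and no fold is given for it.

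At day 8 both knockout lines held more histone cluster RNA than wild type. The summed level of the 60 genes was 245, 231 and 169 TPM in G6 at day 0, 4 and 8, and 195, 176 and 151 TPM in H8. The knockout mean at day 8 was 160 ± 13.1 TPM (SD, n = 2), which is 2.03 times the wild-type 79.0 TPM. At day 0 and day 4 the knockout mean was 0.971 and 0.801 times wild type, with G6 above and H8 below wild type at day 0 and both lines below it at day 4. Each knockout line was at its lowest at day 8 as well.

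**Figure D2:**
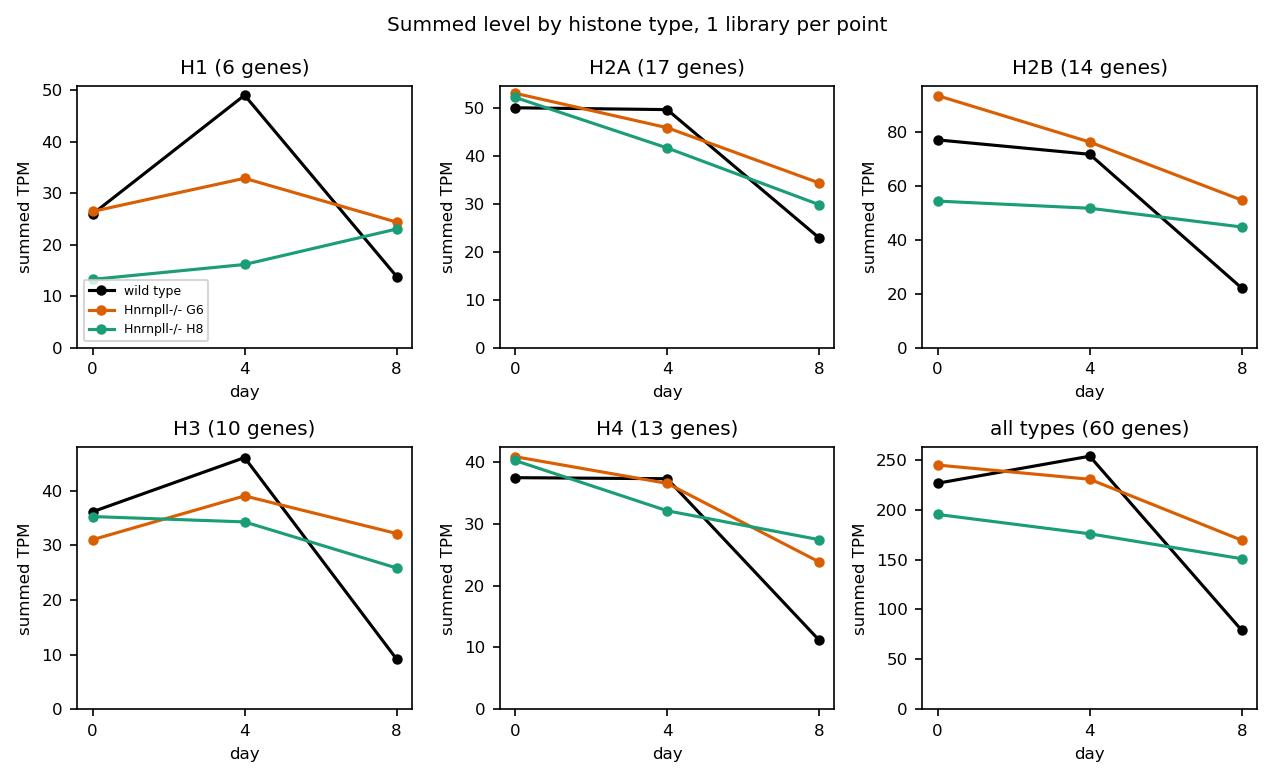
Summed TPM of the genes of each histone type, and of all 60, by day, with 1 library per point (black, wild type; orange, G6; green, H8) and every vertical axis starting at 0. Wild type is below both knockout lines at day 8 in each panel, for example in H3 (9.15 TPM against 32.2 and 25.9 TPM).

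By type, the ratio of the knockout mean of summed TPM to wild type at day 8 ran from 1.40 for H2A to 3.17 for H3. The H3 sum was 32.2 TPM in G6 and 25.9 TPM in H8 against 9.15 TPM, a ratio of 3.17. For H4 the sums were 23.8 and 27.4 against 11.1 TPM (ratio 2.30), and for H2B 54.8 and 44.8 against 22.1 TPM (ratio 2.25). For H1 they were 24.4 and 23.0 against 13.8 TPM (ratio 1.72), and for H2A 34.3 and 29.8 against 22.9 TPM (ratio 1.40). In every type both lines lay above wild type. The order of the types depends on the abundant genes: without the gene of highest level in each, the ratio was 3.44 for H4 and 2.93 for H3, and the ratio of the median TPM of members was 2.92 for H4, 2.56 for H2B, 2.36 for H3, 1.90 for H2A and 1.85 for H1. No ratio was tested.

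Gene by gene, 49 of 60 had both knockout lines above wild type at day 8, against 40.1% of all genes, and 2 of 60 had both below, against 44.4%. All 10 H3 genes and 13 of 14 H2B genes had both lines above wild type, as did 14 of 17 H2A, 9 of 13 H4 and 3 of 6 H1 genes. In 28 of 60 genes the wild-type level was below 0.5 times that of each line, against 17.0% of all genes. The 2 genes with both lines below were Hist3h2a and Hist2h2aa1, both named here after their values were seen.

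In the test of single genes (edgeR quasi-likelihood, 24794 genes, Benjamini-Hochberg adjustment over all of them), 4 of 60 histone genes were called at day 8 at an adjusted p under 0.05. All 4 were higher in the knockout. Over all genes 9.87% were called at day 8, 5.01% as higher, so the count of histone genes called is near the background. The fitted log2 differences had a median of 1.33 over the 60 genes and 0.075 over all genes, and 58 of 60 were above 0, against 53.5% of all genes. With the 3 genes that have 0 reads in all libraries of a group at day 8 set to the bound given by 3 reads, the median was 1.28. Before adjustment, 23 of 60 genes had an edgeR p under 0.05. The share over all genes at that unadjusted threshold is at least the 9.87% called after adjustment. No histone gene was called when any 1 of the knockout libraries of day 4 or day 8 was left out, and over all genes the calls then went down to between 0 and 562. Without G6 of day 0, 10 of 59 were called, all higher, against 17.2% of all genes called and 8.80% called as higher. Without H8 of day 0, 11 of 60 were called, 10 of them higher, against 17.3% and 8.88%. DESeq2 called 15 of 60, all higher, against 22.0% and 11.3%. The number of histone genes called thus went up and down with that over all genes.

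Hist1h4n, an H4 gene (chr13:21831767-21832196, minus strand), had the largest called difference. Its level was 7.65, 3.76 and 0.276 TPM in wild-type cells of day 0, 4 and 8, 5.59, 4.16 and 2.55 TPM in G6, and 6.14, 3.82 and 3.23 TPM in H8. It was lower on each later day in all 3 lines, and only at day 8 did wild type stand far below both knockout lines. The fitted fold at day 8 was 10.9 (log2 3.45, SE 0.565, edgeR adjusted p = 0.0259). It rests on 8 reads in the wild-type library against 95 and 144, and 85.6% of its 50-base stretches occur in other genes.

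Hist1h4d, another H4 gene (chr13:23581598-23582735, plus strand), has few stretches shared with other genes (10.2%). Its level was 3.94, 5.07 and 1.02 TPM in wild-type cells of day 0, 4 and 8, 6.13, 7.44 and 6.34 TPM in G6, and 8.73, 7.15 and 5.96 TPM in H8. Both lines were above wild type on all 3 days, by the most at day 8, where the log2 difference was 2.67 (SE 0.526, edgeR adjusted p = 0.0350). At day 0 and 4 the log2 differences were 0.93 and 0.45, with edgeR adjusted p = 0.286 and 0.724.

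Hist1h3c, the H3 gene with the highest mean level (chr13:23744973-23745602, minus strand), was steady in the knockout. It stood at 6.71, 7.21 and 5.74 TPM in G6 and 5.98, 6.38 and 5.496 TPM in H8, against 6.82, 8.99 and 1.17 TPM in wild type. The wild-type level was above both lines at day 0 and 4 and below both at day 8. The log2 difference at day 8 was 2.36 (SE 0.431, edgeR adjusted p = 0.0306).

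Hist1h2br, an H2B gene with spliced transcripts (chr13:21833743-21837530, plus strand), was the fourth called gene. Its level was 1.65, 2.51 and 0.193 TPM in wild type, 1.59, 1.43 and 1.70 TPM in G6, and 2.29, 1.24 and 1.52 TPM in H8 at day 0, 4 and 8. Wild type at day 8 was again far below every other library, and wild type at day 4 was the highest. The log2 difference was 2.59 (SE 0.595, edgeR adjusted p = 0.0485), and it was not called with the replicate block that takes the knockout line as a term (edgeR adjusted p = 0.0571). All 50-base stretches of 1 of its transcripts occur in another gene, so its reads may belong to the near-identical Hist1h2bq, which stood at 0.829 TPM in wild type and 2.16 and 1.60 TPM in lines G6 and H8 at day 8.

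Several genes lay close to the threshold. The H4 gene Hist1h4h, at 0.518 TPM in wild type and 3.04 and 2.53 TPM in lines G6 and H8 at day 8, had a log2 difference of 2.46, and Hist2h3c2, an H3 gene of the Hist2 cluster, had 3.26 (edgeR adjusted p = 0.0532) on 8 wild-type reads. These genes are named after their values were seen. Among the genes named for their level, the H1 gene Hist1h1a had a log2 difference of 2.42 (edgeR adjusted p = 0.0636), and Hist1h3h 1.98 (edgeR adjusted p = 0.0608). The H2B gene Hist1h2bk had 1.56 (edgeR adjusted p = 0.0760), and both knockout lines (7.93 and 6.91 TPM) were above wild type (2.71 TPM). Hist1h2bf had 1 read in wild type at day 8 against 55 and 25 in the lines, too few for a fold.

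**Figure D3:**
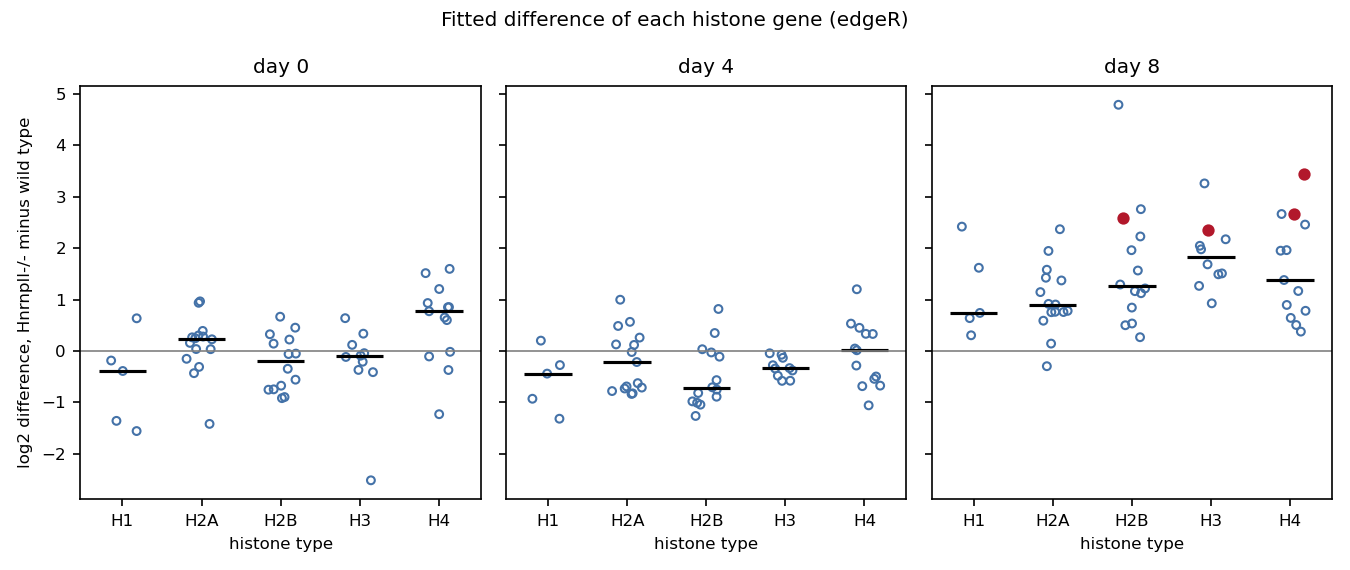
Fitted log2 difference (Hnrnpll-/- minus wild type, edgeR) of each histone cluster gene by type at day 0, 4 and 8, without the 3 genes that have 0 reads in at least 1 library; filled red points passed the threshold and black bars are medians. At day 8 all but 1 of the 57 points (Hist3h2a) lie above 0, at day 0 and 4 the points lie on both sides, and the highest point at day 8 is Hist1h2bf with its single wild-type read.

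Hist1h1c and Hist1h2bc, the most abundant of the 60 genes, were not called at day 8. For Hist1h1c the levels were 15.5 and 18.3 TPM in lines G6 and H8 against 11.01 TPM (log2 difference 0.74, edgeR adjusted p = 0.450), and for Hist1h2bc 19.5 and 15.8 TPM against 8.81 TPM (1.12, edgeR adjusted p = 0.228). Hist1h4i, the H4 gene with the highest mean level, stood at 5.23 and 8.27 TPM against 5.66 TPM (0.38, edgeR adjusted p = 0.644), so that wild type lay between the lines. Hist3h2a stood at 3.86 and 3.56 TPM against 4.96 TPM (log2 difference -0.30, edgeR adjusted p = 0.683). A p that misses the threshold does not show that these 4 genes were equal in both genotypes.

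The day 8 difference was also split by annotated 3′ end. Genes whose transcript ends within 100 bases of the stem-loop had a median log2 difference of 1.54 at day 8 (2 of 20 called), those that run on further had 1.27 (1 of 17 called), and those without a stem-loop match had 1.14 (1 of 23 called), with 9.87% of all genes called. All 3 classes were thus shifted the same way, and the difference between them was not tested.

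The difference between genotypes at day 8 was set against that at day 4 in an interaction term. No histone gene and no other gene was called (0% of 24794), although 25 of 60 histone genes and 4041 genes in all had an edgeR p under 0.05 before adjustment. The median interaction was 1.58 on the log2 scale over the 60 genes and 0.007 over all genes, and 56 of 60 were above 0. DESeq2 called 6 of 60 in this term, all higher (Hist1h2bk, Hist1h2br, Hist1h3b, Hist1h3c, Hist1h4h and Hist1h4n), against 6.36% of all genes. This interaction shares the wild-type day 8 library with the comparison at day 8, so it is not a second measurement of the same difference.

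At day 0 and day 4 no histone cluster gene passed the threshold. At day 0 this was none of 60, against 5.43% of all genes, with a median log2 difference of 0.008 and 2 genes with an edgeR p under 0.05, Hist1h3f and Hist1h4i, both lower in the knockout. DESeq2 and limma-voom also called none of 60, and their shares over all genes are not given here. Hist1h4i stood at 13.5 TPM in wild type and 4.39 and 6.92 TPM in lines G6 and H8 at day 0 (log2 difference -1.23, edgeR adjusted p = 0.171), and both lines lay well below wild type. H4 was the type with the highest median at day 0 (0.77), with both lines above wild type in 8 of 13 genes, against 32.9% of all genes.

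At day 4 the edgeR tests found none of 60, against 0.00807% of all genes, and 0 histone genes had an edgeR p under 0.05. DESeq2 and limma-voom called none either, and their shares over all genes are not given here. The median log2 difference was -0.34, against 0.069 over all genes, and both lines lay below wild type in 34 of 60 genes, against 31.5% of all genes. For H3, all 10 fitted differences were below 0, from -0.58 to -0.05. Hist1h1c had the lowest difference, with 24.5 TPM in line G6, 10.02 TPM in line H8 and 40.5 TPM in wild type (log2 difference -1.32, SE 0.550, edgeR adjusted p = 0.373). The interaction of day 4 with day 0 called none of 60, against 0.504% of all genes, and no histone gene had an edgeR p under 0.05 in it.

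Over all days together, the additive model of day and genotype called none of 60 histone genes, against 0.984% of all genes. The median log2 difference was 0.28 over the 60 genes and -0.016 over all genes, and it was -0.21 without the wild-type day 8 library. The direction over all days therefore turned on that library. The 2 genes with an edgeR p under 0.05 were Hist1h4d (log2 difference 1.22, edgeR adjusted p = 0.210) and Hist3h2ba (0.88, edgeR adjusted p = 0.176). DESeq2 called 3 of 60, Hist1h4d and Hist3h2ba as higher and Hist2h2aa1 as lower, against 13.5% of all genes.

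Within the knockout lines, 1 histone gene rose from day 0 to day 4. Hist3h2ba, the H2B gene next to Hist3h2a (chr11:58948920-58949533, plus strand), stood at 4.03, 15.7 and 3.16 TPM in G6 and 2.54, 11.7 and 3.09 TPM in H8 at day 0, 4 and 8. Wild type also peaked at day 4, at a lower level, with 2.05, 7.36 and 1.501 TPM. The rise was 2.06 on the log2 scale (SE 0.365, edgeR adjusted p = 0.0189), and it was the only 1 of 60 called, against 14.7% of all genes called and 9.56% called as higher. From day 4 to day 8 the log2 change was -2.12 (SE 0.361, edgeR adjusted p = 0.0897), which DESeq2 and limma-voom called. The rise to day 4 was not called without either knockout library of day 4. Hist3h2ba thus peaked at day 4 in all 3 lines, and no difference in this step between genotypes was called (interaction 0.15 from day 0 to 4, edgeR adjusted p = 0.954).

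Hist1h2bc, by contrast, was lower at day 4 than at day 0. It stood at 50.6, 14.4 and 19.5 TPM in G6 and 22.5, 9.06 and 15.8 TPM in H8 at day 0, 4 and 8, so that both lines were lowest at day 4. The log2 change from day 0 to day 4 was -1.63 (SE 0.430, edgeR adjusted p = 0.0551). With the replicate block it was -1.58 and called (edgeR adjusted p = 0.0241), which brings the count to 2 of 60, against 15.3% of all genes. In wild type Hist1h2bc stood at 37.9 and 12.0 TPM on those days.

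**Figure D4:**
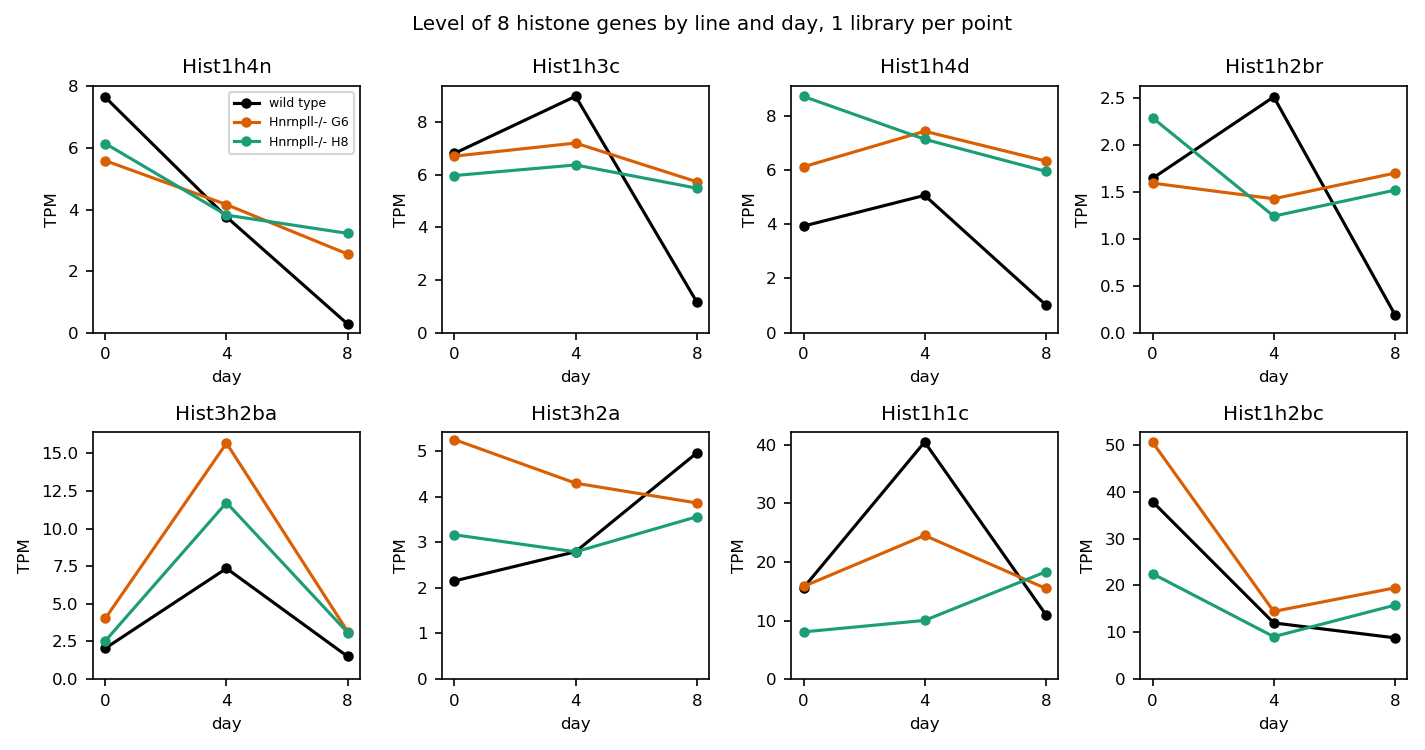
Level in TPM of 8 histone cluster genes by day, with 1 library per point (black, wild type; orange, G6; green, H8) and vertical axes that start at 0. The upper row holds the 4 genes called at day 8, each with a low wild-type point there, and the lower row shows the day 4 peak of Hist3h2ba, the higher wild-type level of Hist3h2a at day 8 and the spread between lines of Hist1h1c and Hist1h2bc.

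From day 4 to day 8 no histone gene was called in the knockout lines, none of 60, against 0.311% of all genes, and a median log2 change of -0.27. Only Hist3h2ba had an edgeR p under 0.05. In 24 of 60 genes both lines were lower at day 8 than both were at day 4, against 25.7% of all genes, and 10 of these were H2A genes. Over the same days the wild-type sum of the 60 genes went from 254 to 79.0 TPM, while that of G6 went from 231 to 169 TPM and that of H8 from 176 to 151 TPM.

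The 2 knockout lines stood apart in several H1 genes. Hist1h1c stood at 15.8, 24.5 and 15.5 TPM in G6 and 8.06, 10.02 and 18.3 TPM in H8 at day 0, 4 and 8, and Hist1h1d at 2.10, 2.45 and 1.65 TPM against 0.403, 0.805 and 1.005 TPM. G6 was above H8 on every day in 4 of 6 H1 genes and in 14 of 60 genes, against 19.3% of all genes, and H8 was above G6 on every day in 2 of 60, against 13.3%. Hist1h2bg, an H2B gene, stood at 24.8 TPM in G6 and 7.77 TPM in H8 at day 4, with wild type between them at 15.6 TPM.

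Genes that serve DNA replication were set beside the histones, since the cell makes both for S phase. Of 32 S phase and DNA replication genes, 4 were called as higher and 1 as lower in the knockout at day 8 (median log2 difference 0.42), against 9.87% of all genes called and 5.01% called as higher. Fitted differences at day 8 were above 0 in 27 of 32, against 53.5% of all genes. Ccne1, the cyclin that drives entry into S phase, was higher by 1.28, the replicative helicase subunits Mcm5 and Mcm7 by 0.84 and 0.70, and the histone chaperone Asf1b by 0.98, while Ccne2 was lower by 1.19 (log2 difference -1.19). Their summed level at day 8 was 1.22 times wild type in the knockout mean, against 2.03 times for the histone cluster genes. Whether a different share of cells in S phase goes with the histone levels was not tested, and in bulk RNA fewer such cells and less RNA per cell cannot be told apart.

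None of 15 factors of histone mRNA transcription and 3′ processing was called in any of the 8 comparisons. Over all genes the share called ran from 0% to 14.7% by comparison. Slbp, the stem-loop binding protein, stood at 186, 121 and 123 TPM in wild-type cells of day 0, 4 and 8, 145, 92.2 and 99.3 TPM in G6, and 132, 92.2 and 95.4 TPM in H8. Both knockout lines were thus below wild type on all 3 days, and Slbp is named here after its values were seen. Of the 15 factors, 6 had a fitted difference above 0 at day 8, and the median log2 difference was -0.19. Of 11 tested histone genes outside the clusters, most of which have polyA tails and are expressed outside S phase too, H2afx was called as higher at day 8 (log2 difference 1.36, edgeR adjusted p = 0.0392) and H2afj at day 0. Over all genes 9.87% were called at day 8 and 5.43% at day 0. H2afx, whose mRNA is known in both a stem-loop and a polyadenylated form, stood at 158 TPM in wild type and 384 and 362 TPM in lines G6 and H8 at day 8, a level far above that of any cluster gene. Of 12 histone chaperones, 1 was called at day 8, Asf1b, against 9.87% of all genes.

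Other features of the libraries moved with the groups. At day 8 the embryonic stem cell markers summed to 1150 TPM in wild type and 6890 and 6517 TPM in lines G6 and H8, with 6 of 7 called as higher (5.01% of all genes were), while the 5 cardiac and blood markers summed to 733 TPM in wild type and 7.59 and 16.7 TPM, with 4 of 5 called as lower and the embryonic globin Hbb-bh1 listed at 0 in G6. The 8 fibroblast or feeder markers summed to 774 TPM in wild type and 13.1 and 44.6 TPM at day 8, with 2 of 8 called as lower (9.87% of all genes were called in either direction). Of these 8, Fap was listed at 0 in wild type and Thy1 stood at 3.98 TPM in wild type and 6.43 and 6.63 TPM in lines G6 and H8. The wild-type day 8 library, in which the histone genes were lowest, thus also held the most RNA of differentiated cell types, and the part of that in the histone levels was not tested. Of 19 listed RNAs that carry no polyA tail, 10 were tested. Among these, Rn7s1 and Rn7s2 were called as higher in the knockout at day 0, where 5.43% of all genes were called. Without these 2, the summed level of the other 17 listed RNAs, tested or not, was lowest in wild type at day 8, where the histone RNAs were lowest too. It stood there at 15.7 TPM, against 25.9 and 26.8 TPM in lines G6 and H8, a ratio of 1.68, and wild type at day 8 was 0.585 times wild type at day 4. Rn7sk, the most abundant of the 17 in wild type at day 8, went the other way (7.98 TPM against 4.92 and 4.81 TPM in lines G6 and H8). None of the 10 tested RNAs was called at day 8, 8 of 10 fitted differences were above 0, and their median log2 difference was 1.05. The part of this in the histone levels was not tested. In the day 0 knockout libraries the same sum was 25.0 and 25.1 TPM, against 19.9 TPM in wild type. With Rn7s1 and Rn7s2 included, the day 0 sum was 207 TPM in G6 and 168 TPM in H8, against 25.8 TPM in wild type. The day 0 knockout libraries were also the smallest, and 43.5% and 42.6% of their low counts were multiples of 4, against 30.5% to 33.2% elsewhere. Without these 2 libraries, 10 of 59 histone genes were called at day 8, all higher, against 17.6% of all genes called and 8.96% called as higher. Of the 60 genes, 20 overlap another annotated gene, among them all 17 H2A genes, and use of strand in counting is not given in the sources used here, so reads of such pairs cannot be told apart.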

How the data were processed

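RNA was taken from 9 samples with Trizol and made into Illumina polyA+ libraries, per the labels' protocols. The authors deposited a table of counts per gene and a table of TPM per gene for each library. The submitters' processing notes name HISAT2 2.0.5, StringTie 1.3.3b and the build mm10, without their parameters, and use of strand and treatment of reads that map to several places are not given in the sources used here. The deposited counts are whole numbers that sum to 54218051 to 184952442 per library, and rows without a gene name (0.0242% to 0.0398% of counts) were left out. The deposited TPM values were used for levels and sums, on the linear scale.

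Genes that reached a CPM of 0.0791, which is 10 counts at median depth, in 2 or more libraries were tested with edgeR 4.0.16 (TMM, quasi-likelihood, R 4.3.3), which kept 24794 genes and all 60 histone cluster genes. A model of 6 groups (3 residual degrees of freedom) gave the contrasts by day, the knockout course and the interactions, and a model of day plus genotype (5 residual degrees of freedom) gave the difference over all days. The 6-group model gives each single wild-type library the spread seen between the knockout lines. P-values were adjusted by Benjamini-Hochberg over all genes within each of 8 comparisons, with a threshold of 0.05. No 2 libraries held identical values. A count of 0 was treated as up to 3 reads. These limits cover counting error only.

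The knockout libraries of different days come from the same 2 lines, so the line pairs them. Across 15063 genes the deviations of same-line libraries had Pearson r = 0.188 (day 0 and 4), 0.159 (day 0 and 8) and 0.417 (day 4 and 8). The replicate block is printed where it changed a call.

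Annotation and transcript sequences are those of GENCODE M21. The genes named are the 3 with the highest mean TPM of each type and up to 4 called rises and 4 called falls per comparison, with other genes marked as chosen after their values were seen. The histone genes and the other lists were chosen with earlier results of these data known. Alternatives were other scalings, no filter, DESeq2 1.42.0, limma 3.58.1 (voom, and on log2(TPM + 1) or log2(TPM + 0.1)), the replicate block, protein-coding genes only and libraries left out.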

Additional observations from a re-analysis of the deposited data

Results flagged for a closer look

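The ratio of knockout to wild type in summed TPM changed side of 1 between days in both lines for several types, and none of these differences was tested. From day 4 to day 8, when both lines went from below to above wild type, the ratio of the knockout mean to wild type shifted on the log2 scale by 1.99 for H3, 1.78 for H1, 1.32 for H4, 0.67 for H2A and 1.34 for all 60 genes. H2B is not among these, since G6 was above wild type at day 4 already. From day 0 to day 8 the ratio shifted by 1.79 for H3. From day 0 to day 4, when both lines went from above to below wild type, it shifted by -0.25 for H2A and -0.23 for H4. Not all of these changes of side held in both lines under other measures. With TMM-scaled CPM, G6 was at 0.932 times wild type for H4 at day 0 and H8 at 1.003 times for H3. Without Hist1h4i, G6 was at 1.09 times wild type for H4 at day 4, so both changes of side of H4 were then lost. By the median TPM of members, G6 was at 1.009 times wild type for H1 at day 4, and for H2A at day 0 the lines were at 0.944 and 0.934 times. Each shift rests on 1 wild-type library per day.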

How the results depend on the processing

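The calls at day 8 depended on the libraries and the test. DESeq2 called 15 of 60 genes at day 8 and limma on log2(TPM + 0.1) called 10, all higher, against 22.0% and 10.8% of all genes. Leaving out 1 library at a time gave 0 to 11 calls there. None was called without any 1 of the knockout libraries of day 4 or day 8, 10 without G6 of day 0, and 11 without H8 of day 0, of which 10 were higher and Hist2h2aa1 was lower. Without both knockout libraries of day 0, an alternative chosen after seeing the data, 10 were called. Hist1h3c, Hist1h4d and Hist1h4n were called under each of the 9 other settings of scaling, filter, tool and block, and Hist1h2br under 5 of them. In the knockout course to day 4, the replicate block (pairing by line) called 2 genes, against 15.3% of all genes. DESeq2 also called 2, with its share over all genes not given here, and leaving out 1 library gave 0 to 3. Hist3h2ba was not called without either knockout library of day 4, Hist1h2bc was added without wild type of day 8, and Hist1h2bc and Hist2h2aa1 were added without H8 of day 0. The replicate block changed no other count by more than 1.5 times. From day 4 to day 8 in the knockout, DESeq2 and limma-voom each called 1, and their shares over all genes are not given here. Over all days DESeq2 called 3 and averaging the contrasts by day called 1 (Hist1h4d). DESeq2 called 6 in the interaction of day 8 with day 4. The log2 ratio of sums moved without the gene of highest level for H1 at day 4 (to -0.24) and day 8 (1.28), for H2A at day 0 (0.097), and for H4 at day 0 (0.54), day 4 (0.023) and day 8 (1.78). With TMM-scaled CPM in place of TPM it moved for H2A at day 0 (0.24) and day 8 (0.22) and for H4 at day 0 (-0.046). The exact stem-loop was found in 22 genes in place of 37. Leaving out a whole knockout line was run for the comparison over all days only, since the 6-group model then has no residual degrees of freedom. The cause of these changes was not tested. With 28 reads per gene at the median in wild type of day 8, against 46 to 107 elsewhere, single-gene folds there are imprecise.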

Other observations

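The 5 genes of the Hist2 cluster summed to 3.30 TPM in wild type at day 8 and to 2.04 and 2.71 TPM in lines G6 and H8, the opposite order to Hist1. Most of the wild-type sum was Hist2h2aa1, and without that gene the sums were 0.709, 2.04 and 2.71 TPM. The Hist3 genes, Hist3h2a and Hist3h2ba, summed to 6.46 TPM in wild type at day 8 and to 7.02 and 6.65 TPM in lines G6 and H8. At day 4 they summed to 10.1 TPM in wild type and 19.97 and 14.5 TPM in lines G6 and H8. The single Hist4 gene, Hist4h4, stayed at or below 0.289 TPM in every library, and Hist2h2be of the Hist2 cluster, an H2B gene with a long annotated transcript, stood between 0.473 and 0.911 TPM. The 52 Hist1 genes summed to 69.2 TPM in wild type at day 8 and to 160 and 141 TPM in lines G6 and H8.

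As a share of the summed TPM of the 60 genes, H3 was 11.6% in wild type at day 8 and 12.7% to 19.5% in the other 8 libraries. H2A was 28.9% in wild type at day 8, the highest of the 9 libraries, and 19.6% to 26.7% in the others. Part of this H2A share is Hist3h2a, with 4.96 TPM, and Hist2h2aa1, with 2.59 TPM.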
